A study of Caenorhabditis elegans with 36 samples.

Results

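Small RNAs of wild type (WT) C. elegans larvae were compared between 2 windows of late larval development, 26-28 h and 30-32 h after synchronized first-stage larvae were put on food at 25 °C. The rule of the comparison took the 3 hourly WT libraries of each window as its replicates, which gave 6 of the 36 libraries of the series. Strain and hour came from the labels. All 6 came from the N2 strain, which carried no mutation and received no treatment, and were grown at 2000 animals per plate. RNA was taken from whole animals. The other strain, ebax-1(tm2321), lacks normal function of EBAX-1, the worm counterpart of the mammalian ubiquitin ligase adaptor ZSWIM8, and was sampled at the same hours.

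Each hour had 1 library, and nothing in the labels names separate cultures. The p-values below therefore measure the scatter of neighbouring hours within a window, and a difference between windows cannot be told apart from one between collections or library preparations. In whole animals, fewer cells of a type and less RNA per cell cannot be told apart either. The 6 libraries held 3731335 (32 h) to 5579822 (26 h) counts over 437 annotated mature strands, and miR-72-5p was the most abundant strand in each, with 9.42 to 10.2% of the counts. Log2 levels correlated at r = 0.989 to 0.997 between libraries of the same window and at 0.969 to 0.981 between windows, across strands, which are not independent replicates. No pair of libraries from 1 window agreed within sampling noise (chi-square per degree of freedom at least 70.5), so each was counted once.

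A microRNA (miRNA) is cut from a hairpin precursor as a short duplex. One strand, the guide, is kept by an Argonaute protein and directs it to target mRNAs, whereas the other, the passenger, is usually degraded soon after. The level of a passenger strand thus follows ongoing production from its hairpin more closely than the level of a long-lived guide does. In C. elegans larvae the lin-4 and let-7 families time the succession of stage-specific cell fates, and transcription of many genes rises and falls once in each larval stage. Here the guide is the strand with the higher mean level in the WT time course, and its partner is the passenger. By that rule miR-41-5p, miR-42-5p, miR-67-5p, miR-241-3p and miR-788-3p count as guides, although the other strand of these hairpins is usually treated as the functional one. So do miR-49-5p and miR-790-3p, where the study modelled the other strand as the guide.

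Between 26-28 h and 30-32 h many more strands rose than fell. Of 249 strands with enough reads to test, 30 rose (12% of those tested) and 8 fell (3.21%) at an adjusted p under 0.01 in edgeR's quasi-likelihood test, 38 in all (15.3%), and 84 had an unadjusted p under 0.05. The rises were also larger. Of the 30, 24 exceeded 1 on the log2 scale and 9 exceeded 2, while 5 of the 8 falls went below -1. The median over all tested strands was 0.01, which the TMM scaling keeps near 0. Every late hour lay above every early hour in 58 strands (23.3%) and below it in 46 (18.5%), more than the test called. Passenger strands made up 15 of the 30 rises among 90 tested (16.7%, median change of all tested passengers 0.14), guides 14 among 139 tested (10.1%, median -0.01), and strands of hairpins annotated with a single strand 1 among 20. A single library decided part of these counts. Without 27 h there were 17 rises and 2 falls, without 28 h 14 and 3, and without 31 h 19 and 3. Moving both windows 1 h earlier, to 25-27 h and 29-31 h, left 0 calls in edgeR (83 strands at an unadjusted p under 0.05) and 26 rises and 14 falls in DESeq2. There 37 of the 38 strands still changed in the same direction, and the other, miR-85-5p, had too few reads to test. Moving the windows 1 h later gave 15 rises and 6 falls.

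**Figure D1:**
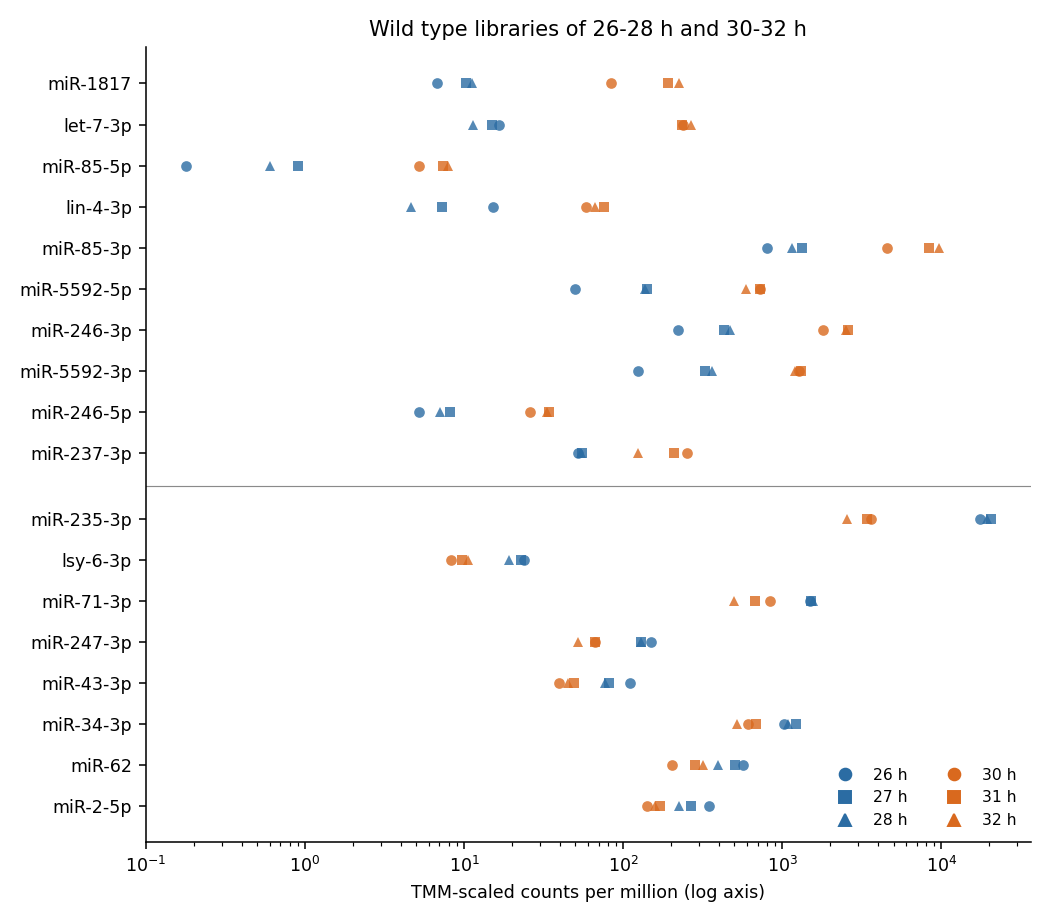
TMM-scaled CPM on a log axis for the 10 strands with the largest rises and the 8 that fell, 1 symbol per WT library (blue, 26-28 h, orange, 30-32 h). Strands were taken only if their 3 early and 3 late hours did not overlap. miR-235-3p falls from at least 17573 to at most 3619.

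The passenger strand of let-7 rose more than any other passenger tested. let-7 is the miRNA that drives the change from larval to adult cell fates by repressing lin-41, and its gene lies on the X chromosome. In counts scaled to library size with TMM factors (CPM), let-7-3p was at 16.6, 15.03 and 11.5 at 26, 27 and 28 h, and at 236, 234 and 267 at 30, 31 and 32 h. The windows did not overlap, and the late window was 17.1-fold higher (log2 change 4.09 ± 0.20 SE, edgeR adjusted p = 1.31e-07). The guide, let-7-5p, stood at 33119, 30246 and 29335 CPM in the early window and at 46213, 51212 and 44021 in the late one. It also rose, but 1.53-fold (log2 change 0.61 ± 0.11, edgeR adjusted p = 0.00197), a call that was lost without 27 h or without 28 h. The log2 ratio of guide to passenger in the same libraries fell from 10.92 to 7.57 (change -3.34 ± 0.17, limma adjusted p = 1.82e-06).

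In the lin-4 family both passengers rose, and of the guides 1 rose. lin-4, which represses lin-14 and lin-28 in early larvae, lies in an intron of F59G1.4 on chromosome II, and its relative miR-237 lies between genes on X. lin-4-3p was at 15.2, 7.29 and 4.62 CPM early and at 58.3, 76.0 and 66.7 CPM late, a 7.30-fold rise with no overlap (log2 change 2.87 ± 0.34, edgeR adjusted p = 1.42e-04). These are low levels, with 23 to 85 counts per early library. lin-4-5p stood at 583, 528 and 496 CPM and then at 594, 602 and 924 CPM. All late hours were above the early ones, but the change of 0.40 ± 0.19 did not pass the test (edgeR adjusted p = 0.166), and the ratio of lin-4 strands fell by 2.42 ± 0.33 on the log2 scale (limma adjusted p = 0.00256), a call lost without 27, 28 or 31 h. For miR-237 the passenger went from 52.3, 54.9 and 54.5 CPM to 252, 207 and 123 CPM (log2 change 1.85 ± 0.24, edgeR adjusted p = 2.39e-04). Its late hours differed from each other more than its early hours did. The guide miR-237-5p rose by 0.60 ± 0.11 (edgeR adjusted p = 0.00237), with 27 h and 28 h each needed for the call. The ratio of miR-237 strands was at -1.16 ± 0.22 and did not pass (limma adjusted p = 0.0134).

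The remaining let-7 relatives, miR-48, miR-84 and miR-241, are guides of the L2 to L3 transition. None of their 6 strands passed the test. Of the passengers, miR-48-3p moved by 0.71 ± 0.24 (edgeR adjusted p = 0.0494) and miR-84-3p by 0.52 ± 0.17 (edgeR adjusted p = 0.0423), both with every late hour above every early hour. The guide miR-84-5p moved by -0.18 ± 0.14. In the whole family 2 of 8 strands rose and none fell, with a median of 0.40, against 12% rises and a median of 0.01 over all tested strands. Of the more distant let-7-like miR-793, miR-794 and miR-795, none of the 4 tested strands passed (median -0.24).

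Over the 90 hairpins with both strands tested, the passenger moved by more than the guide, in either direction, in 59. Its change was the more positive in 53. Tested passengers had fewer reads, with a median of 49.0 CPM against 324 for tested guides. The part of read depth in these counts was not tested. In 10 hairpins both strands rose. The passenger rose in 15 and fell in 3, and the guide rose in 12 and fell in 1. The ratio itself passed limma's test in only 3 hairpins (3.33%), down in let-7 and lin-4 (2.22%) and up in miR-34 (1.11%), with 24 at an unadjusted p under 0.05. In miR-34, named for a family conserved from worms to mammals, the passenger miR-34-3p fell from 1030, 1227 and 1085 CPM to 606, 687 and 516 CPM (log2 change -0.89 ± 0.16, edgeR adjusted p = 0.00158). miR-34-5p hardly moved, at 3021 to 3403 CPM early and 2878 to 3801 CPM late, so the ratio rose by 0.93 ± 0.14 (limma adjusted p = 0.00362). Neither the fall of miR-34-3p nor the ratio held without 27 h or without 28 h, and the ratio was lost also without 26 h or 31 h.

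**Figure D2:**
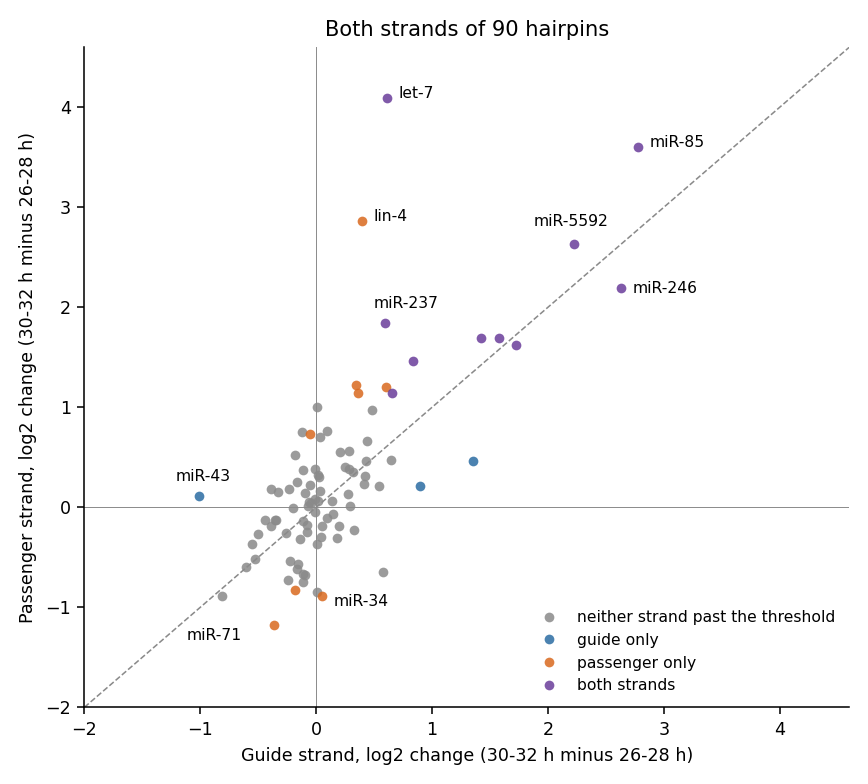
Log2 change (30-32 h minus 26-28 h) of the guide (x) and passenger strand (y) of 90 hairpins, coloured by which strand passed edgeR's test. The dashed line marks equal change; let-7 (0.61, 4.09) and lin-4 (0.40, 2.87) lie far above it, and miR-246 (2.63, 2.20) and miR-85 (2.78, 3.60) near it.

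A further set of hairpins rose in both strands. miR-85-3p, from an intron of F49E12.8 on chromosome II on the opposite strand to that gene, was at 799, 1332 and 1143 CPM early and at 4523, 8299 and 9696 CPM late. Its 6.88-fold rise (log2 change 2.78 ± 0.28, edgeR adjusted p = 4.66e-05) left the windows apart, and within the late window 32 h was above 31 h and 31 h above 30 h. The passenger miR-85-5p had 1, 4 and 3 counts in the early libraries and 24, 29 and 32 in the late ones (log2 change 3.60 ± 0.43, edgeR adjusted p = 1.44e-04). It entered the test only through its late window, and with a pseudocount of 8 in limma its change was 1.89. miR-246-3p, a miRNA tied to lifespan in adult worms, rose from 220, 431 and 467 CPM to 1794, 2585 and 2526 CPM (log2 change 2.63 ± 0.27, edgeR adjusted p = 4.66e-05). miR-246-5p rose with it, by 2.20 ± 0.23 (edgeR adjusted p = 5.17e-05).

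miR-1817, annotated with a single strand from a site between genes on chromosome I, had the largest rise of all strands tested. It stood at 6.78, 10.2 and 11.3 CPM early and at 83.6, 192 and 226 CPM late (log2 change 4.15 ± 0.37, edgeR adjusted p = 2.53e-05). miR-5592 has 2 copies on opposite strands of X, so reads of its copies cannot be separated here. Both of its strands rose, miR-5592-5p by 2.64 ± 0.33 (edgeR adjusted p = 1.71e-04) and miR-5592-3p by 2.23 ± 0.32 (edgeR adjusted p = 4.68e-04). Their early libraries already differed, with miR-5592-3p at 124, 327 and 360 CPM at 26, 27 and 28 h against 1272, 1319 and 1207 CPM late.

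Hairpins listed as rising from the third larval stage on, miR-85, miR-240, miR-786, miR-357, miR-358 and miR-359, gave 9 rises and no fall among 11 tested strands, with a median of 1.63, against 12% rises, 3.21% falls and a median of 0.01 over all tested strands. The list had been drawn up from time courses of this kind, so this count is not independent evidence of their direction. miR-240 and miR-786 are neighbours between genes on X, and miR-786 is known for its part in the defecation rhythm of the intestine. miR-240-5p went from 188, 261 and 252 CPM to 862, 763 and 689 CPM (log2 change 1.72 ± 0.18, edgeR adjusted p = 4.66e-05), and miR-240-3p, miR-786-5p and miR-786-3p rose by 1.63, 1.69 and 1.43. miR-357 and miR-358 are neighbours in an intron of symk-1 on chromosome V. There miR-357-3p, miR-358-5p and miR-358-3p rose by 1.36, 1.70 and 1.58, and each lost its call without 28 h or without 31 h. miR-357-5p (0.46 ± 0.39) and miR-359 (0.83 ± 0.33, edgeR adjusted p = 0.0977) did not pass.

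In the miR-35 family, which embryos need for viability, 7 of the 14 tested strands rose and none fell, against 12% and 3.21% of all tested strands. All 14 had positive values, from 0.34 to 1.46, with a median of 0.74 against 0.01. The 7 members from miR-35 to miR-41 lie close together on chromosome II. Their host intron belongs to Y62F5A.9, which is read from the other strand. Of the 5p strands, miR-37-5p rose by 1.46 ± 0.26 (from 10.5, 6.83 and 7.24 CPM to 28.8, 22.5 and 17.0 CPM), miR-41-5p by 1.41 ± 0.25, and miR-39-5p by 1.22 ± 0.23 (from 22.3, 18.9 and 15.7 CPM to 52.8, 48.5 and 31.6 CPM), while miR-36-5p (0.97, edgeR adjusted p = 0.0132) and miR-40-5p (0.48, edgeR adjusted p = 0.469) did not pass. Of the 3p strands, miR-37-3p rose by 0.83 ± 0.15 and miR-35-3p by 0.65 ± 0.15, whereas miR-36-3p (0.48 ± 0.18) and miR-39-3p (0.34 ± 0.19) overlapped between windows. All 7 of these calls were lost without 27 h and without 28 h. miR-42-3p belongs to the family by sequence but lies with miR-43 and miR-44. It rose from 28.5, 28.7 and 31.6 CPM to 61.3, 52.0 and 83.5 CPM (log2 change 1.15 ± 0.21, edgeR adjusted p = 0.00171), while its neighbour miR-43-3p fell from 110, 81.7 and 76.8 CPM to 39.5, 49.2 and 44.7 CPM (log2 change -1.01 ± 0.19, edgeR adjusted p = 0.00237). Each of these calls was lost without 27 h or without 28 h, and that of miR-43-3p without any late hour too. miR-44-3p and miR-45-3p, whose reads may be shared between the near-identical strands, were at -0.11 ± 0.13 and -0.11 ± 0.14.

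Few strands passed in several further families and clusters. None of the 12 strands of the miR-51 family passed, although 11 were positive (median 0.33), and none of the 8 strands of the miR-64 cluster did (median -0.07). In the miR-58 family only the passenger miR-58a-5p rose, from 688, 808 and 845 CPM to 1235, 1458 and 1201 CPM (log2 change 0.73 ± 0.15, edgeR adjusted p = 0.0034), and it lost its call without 26, 27, 28 or 31 h. The guide miR-58a-3p was at -0.05 ± 0.16, and the guide miR-82-3p at 0.44 (edgeR adjusted p = 0.0189). None of the 6 strands of miR-72 to miR-74 passed, with a median of -0.21. Outside the lists, and chosen after their values were seen, miR-77-5p rose by 1.20 ± 0.15, miR-59-3p by 1.37 ± 0.24 and miR-67-5p by 0.89 ± 0.18, and of these miR-77-5p alone kept its call without each library in turn.

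**Figure D3:**
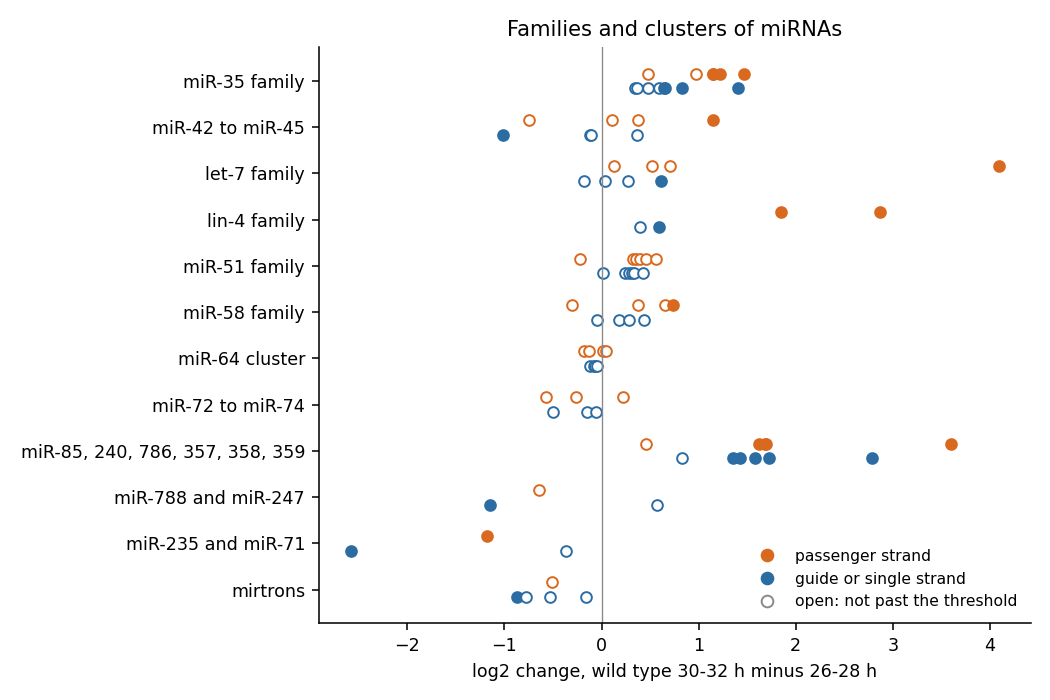
Log2 change (WT 30-32 h minus 26-28 h) of each tested strand in 12 families or clusters, orange for passengers, blue for guides and single strands, filled where edgeR's adjusted p was under 0.01. The 14 strands of the miR-35 family lie between 0.34 and 1.46, and the let-7 family has 1 strand far from the rest at 4.09.

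Of the 8 strands that fell, miR-235-3p stood apart. miR-235 is the worm member of the miR-92 family and keeps progenitor cells quiescent in starved young larvae, and its gene lies between genes on chromosome I. miR-235-3p was at 17573, 20439 and 19460 CPM early and at 3619, 3428 and 2561 CPM late. No other abundant strand fell to this extent, and the drop was 5.98-fold (log2 change -2.58 ± 0.16, edgeR adjusted p = 5.87e-07). It kept its call without each library in turn, whereas in windows moved by 1 h its change was -1.06 or -1.67 and did not pass. The passenger miR-235-5p had 17, 4 and 6 counts early and 1, 4 and 12 late, too few to test.

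miR-247-3p, from a site between genes on X, began a decline that went on afterwards. It fell from 150, 130 and 130 CPM to 66.6, 66.6 and 51.9 CPM (log2 change -1.15 ± 0.17, edgeR adjusted p = 5.86e-04), and this call also held without each library in turn. Its neighbour miR-797-5p was at -0.89 ± 0.22 (edgeR adjusted p = 0.0124). miR-788, the other hairpin listed for a decline late in the fourth stage, had strands that went apart. miR-788-5p was at -0.65 ± 0.17 (edgeR adjusted p = 0.0147), with all late hours below the early ones, and miR-788-3p at 0.58 ± 0.19 (edgeR adjusted p = 0.047). miR-788-5p also went on falling, with a deposited log2 mean of 11.48 early, 10.85 late and 8.72 at 33-35 h. DESeq2's Wald test called this later fall, but edgeR did not with library totals, with DESeq2 size factors or without a filter. The means of miR-788-3p were 11.14, 11.72 and 11.05.

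A pair of hairpins shares an intron of ppfr-1 on chromosome I, miR-71, which extends adult lifespan, and miR-2, of a family shared with flies. In each the passenger fell and the guide did not pass. miR-71-3p went from 1492, 1509 and 1554 CPM to 842, 676 and 497 CPM (log2 change -1.18 ± 0.19, edgeR adjusted p = 8.70e-04), while miR-71-5p spanned 36429 to 65748 CPM early and 25344 to 60830 CPM late and overlapped (-0.37 ± 0.29). miR-2-5p fell by 0.83 on the log2 scale (SE 0.19, edgeR adjusted p = 0.00784) and was not called without any 1 of the 6 libraries, and miR-2-3p was at -0.18 ± 0.18. miR-71-3p lost its call without 27, 28 or 31 h. The mirtron miR-62, spliced from an intron of ugt-50 on X, fell by 0.87 on the log2 scale (SE 0.20, edgeR adjusted p = 0.00877), also with no call once any 1 library was left out, and without 30 h at -0.57. All 5 tested mirtron strands, with both strands of miR-1020 among them, were below 0 (median -0.53), as were 120 of all 249 tested. Of the 5, only miR-62 passed. miR-1018 is listed with the mirtrons, but the annotation used here places it between genes and gives no host intron.

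Among strands that mark cell types, muscle miR-1-3p did not pass, at 66270 to 80785 CPM early and 65128 to 70658 CPM late (-0.16 ± 0.11). lsy-6-3p, which sets the left and right identity of a pair of taste neurons, fell from 23.7, 22.8 and 19.1 CPM to 8.30, 9.69 and 10.6 CPM (log2 change -1.20 ± 0.21, edgeR adjusted p = 0.0015), a call lost without 27 h or 31 h. The other neuronal marker, miR-124-3p, was at -0.50 ± 0.18 (edgeR adjusted p = 0.0612), and both together summed to 79.8 to 108 CPM early and 59.2 to 63.0 CPM late. Intestinal miR-60-3p was at -0.09 ± 0.25. Of 11 strands listed for embryos and germline, 10 were tested, and 3 rose and 1 fell, against 12% and 3.21% of all tested strands. None of the 11 was at 0 in all libraries. The sum of all 11 was 52050 to 52640 CPM early and 41560 to 55590 CPM late, so the windows overlapped. Most of it came from miR-44-3p and miR-45-3p, neither of which was called. Without both, the sum was 2237 to 2843 CPM early and 3142 to 3828 CPM late. The part of any cell type in the changes was not tested.

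The hours next to the windows had no part in the test. On the scale of the deposited log2 values (scaled count plus 8), the library of 29 h lay above all 3 early hours and below all 3 late hours in 19 of the 30 rising strands and in 30 of all 249 tested. It lay between the windows in 6 of the 8 falling strands, against 20 of all 249. Such a position requires windows that do not overlap, which in CPM held for 58 strands upward and 46 downward. The called strands were picked by these same windows, so the shares are not independent evidence of their direction. let-7-3p was at 8.42 at 25 h, between 6.004 and 6.44 at 26-28 h, at 7.64 at 29 h and between 10.05 and 10.42 at 30-32 h. lin-4-3p likewise was at 7.56 at 25 h, higher than at any hour from 26 to 29 h. miR-235-3p, by contrast, was still at 16.17 at 29 h, near its early values of 16.35 to 16.54, and was at 14.02 an hour later.

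**Figure D4:**
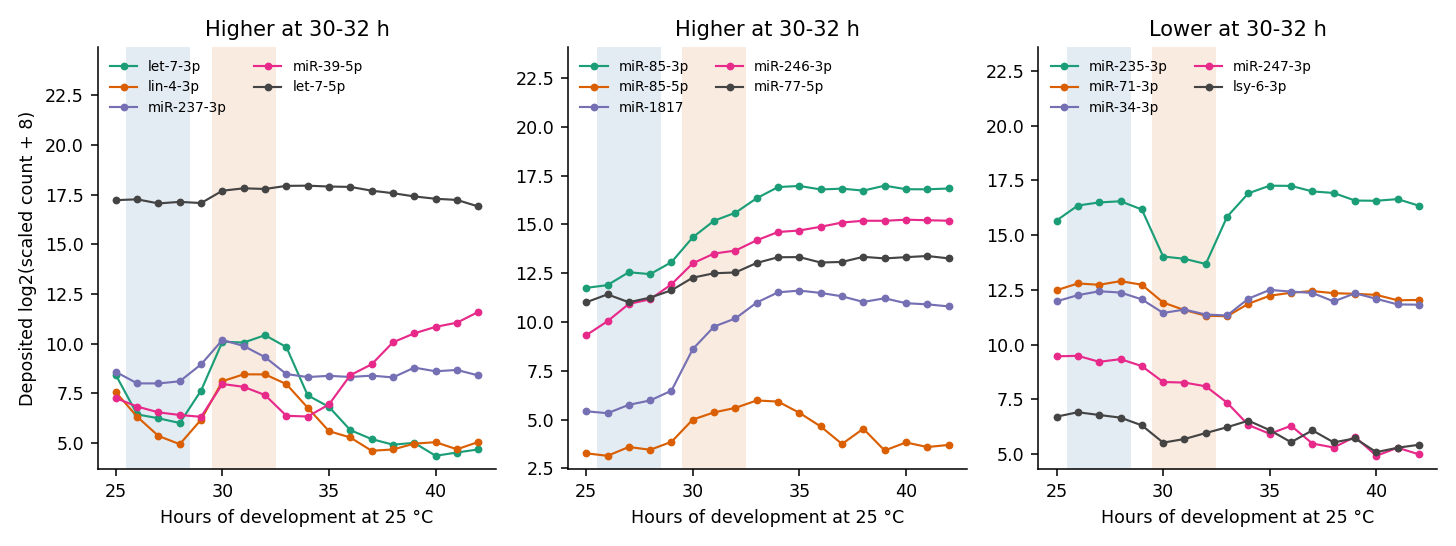
Deposited log2 values by hour in the 18 WT libraries for 15 strands, with 26-28 h shaded blue and 30-32 h shaded orange. let-7-3p and lin-4-3p peak in the orange window and return, miR-85-3p and miR-1817 rise and stay high, miR-235-3p dips and returns by 34 h, and miR-247-3p goes on falling.

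After 32 h the rising strands took different courses. The windows 33-35 h and 30-32 h were compared in a fit of 9 WT libraries that shares the 30-32 h libraries with the first comparison, so the values are given side by side. edgeR called 7 rises (2.77%) and 4 falls (1.58%) among 253 strands (4.35% in all), with 89 at an unadjusted p under 0.05, and 0 of either without 30 h or without 31 h (70 and 73 at an unadjusted p under 0.05). Without 32 h or without 33 h it called 20 and 22 falls. Of the 30 rising strands, 3 rose further, miR-85-3p by 1.81 ± 0.31 (edgeR adjusted p = 0.00564), miR-1817 by 1.92 ± 0.36 (edgeR adjusted p = 0.00867) and miR-77-5p by 0.94 ± 0.15 (edgeR adjusted p = 0.00502). Only miR-237-3p fell again, by 1.35 on the log2 scale (SE 0.23, edgeR adjusted p = 0.00544). These 4 calls were also lost without 28, 34 or 35 h, and all but that of miR-77-5p without 27 h. The other 26 did not pass, and over all 30 the later change was negative in 17 and positive in 13.

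Among those that did not pass, let-7-3p was at -1.51 (edgeR adjusted p = 0.103) and lin-4-3p at -1.22 (edgeR adjusted p = 0.115). Their hours within 33-35 h differed widely, let-7-3p with deposited log2 values of 9.83, 7.40 and 6.81 and lin-4-3p with 7.96, 6.77 and 5.59. The highest hour between 25 and 35 h lay within 30-32 h in 11 of the 15 rising passengers and in 9 of the other 15 rising strands, which were chosen for high values there, and in 75 of all 249 tested. let-7-5p stayed up, with a deposited mean of 17.15 at 26-28 h, 17.76 at 30-32 h and 17.93 at 33-35 h. In the miR-35 family, miR-39-5p stood at 6.37, 6.33 and 6.94 at 33, 34 and 35 h and at 11.59 at 42 h, whereas miR-42-3p averaged 6.97 at 33-35 h and 5.14 at 36-42 h.

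Of the strands that had fallen, miR-235-3p returned by 3.06 ± 0.34 (edgeR adjusted p = 0.00122), from a deposited log2 value of 13.68 at 32 h to 15.84, 16.91 and 17.25 at 33, 34 and 35 h. That call was lost without 30 h or 31 h. miR-247-3p moved the other way, by -1.54 (edgeR adjusted p = 0.0101), and reached 4.99 at 42 h. miR-71-3p (0.36) and miR-34-3p (0.73) did not pass, though the deposited value of miR-34-3p at 35 h, 12.50, was back at its early mean of 12.36.

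The same step was read in the mutant with its hours shifted by 3 h for its slower development, as the study did, so that 33-35 h was set against 29-31 h. In a fit of 12 libraries the mutant change passed edgeR's test in 15 of 259 strands (5.79%), 13 up (5.02%) and 2 down (0.772%). Of the 30 strands that rose in WT, 12 rose in the mutant too and 27 had positive values. let-7-3p went from 23.8, 37.4 and 65.5 CPM to 239, 461 and 205 CPM (log2 change 2.84), miR-1817 rose by 3.36, miR-85-3p by 2.48 and lin-4-3p by 2.01. Of the 8 falling strands, only miR-71-3p also fell in the mutant (-0.98), and 7 had negative values. The share of positive or negative mutant values over all 259 strands was not counted. These counts of signs thus have no background to be read against and are not evidence of agreement between strains.

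The difference between the strains was tested as WT change minus mutant change, and it passed in 1 of 259 strands (0.386%) and in 0 in the other direction, with 45 at an unadjusted p under 0.05. That strand was miR-235-3p. On the scale of this fit it stood at 16350, 17720 and 19240 CPM and then 3188, 3091 and 2402 CPM in WT, and at 37540, 37600 and 32030 CPM and then 31500, 25670 and 31190 CPM in the mutant. The mutant libraries of both windows lay above all 6 WT libraries, and the mutant change was -0.28 (edgeR adjusted p = 0.154), which gave a difference of -2.34 ± 0.19 (edgeR adjusted p = 1.37e-06). It passed under all 18 alternatives, at -2.68 to -2.25.

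Several other strands came close to the threshold. The difference was 1.54 ± 0.31 for miR-42-3p and -1.11 ± 0.23 for miR-247-3p (edgeR adjusted p = 0.0183 for both), and 0.91, 0.97 and 0.86 for miR-35-3p, miR-37-3p and miR-38-3p (edgeR adjusted p = 0.0196 for each). With library totals or DESeq2 size factors, miR-42-3p and these 3 strands passed, so 4 rather than 0 strands had a more positive change in WT. Their levels were lower in every WT library than in any mutant one. miR-35-3p was at 265 to 532 CPM in WT and at 2151 to 3147 CPM in the mutant. miR-42-3p was at 24.9 to 78.3 CPM in WT and at 126.5 to 233.7 CPM in the mutant. The means of all 4 rose in WT and fell in the mutant, where miR-35-3p went from a deposited log2 mean of 13.57 to 13.25. miR-247-3p passed, with a more negative change in WT, with DESeq2 size factors and with DESeq2's Wald test, but not with library totals. miR-788-5p passed in the same direction with DESeq2's Wald test, but not with either scaling. let-7-3p differed by 1.23 ± 0.48 (edgeR adjusted p = 0.206), lin-4-3p by 0.84 ± 0.53 and miR-1817 by 0.76 ± 0.56. None of these passed in the 12 libraries. For lin-4-3p and miR-1817 the errors were wide enough to hide a difference of the size given. let-7-3p did pass, with a more positive change in WT, when the mutant hours were not shifted.

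**Figure D5:**
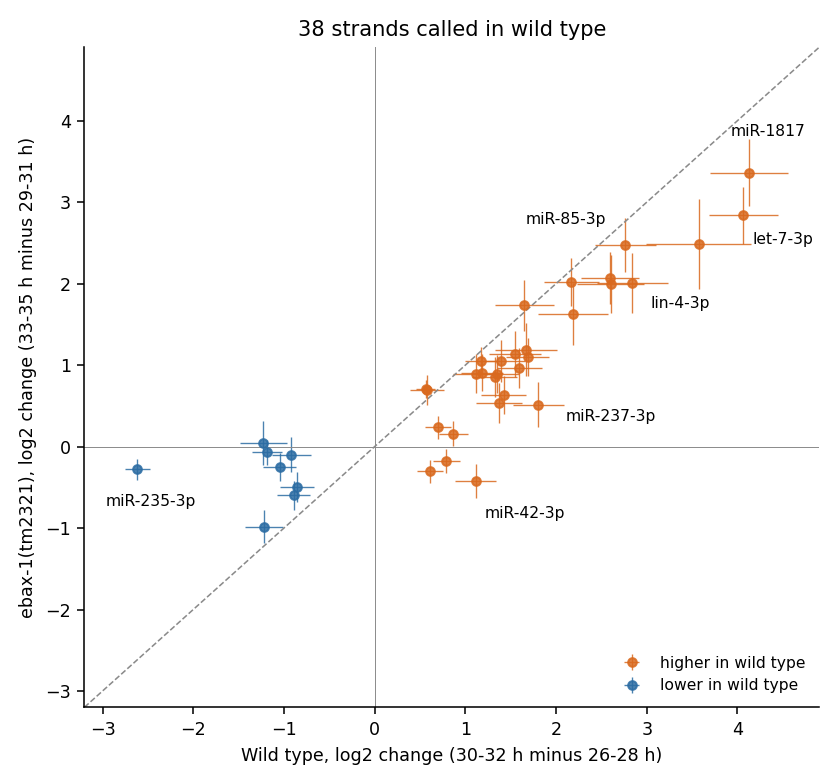
Log2 change of the 38 strands called in WT (x, 30-32 h minus 26-28 h) against the change in ebax-1(tm2321) (y, 33-35 h minus 29-31 h), with standard errors from 1 fit of 12 libraries and a dashed line of equal change. Most rising strands lie along the line or somewhat below it, and miR-235-3p (mutant change -0.28) lies far from it.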

How the data were processed

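Small RNAs of 36 libraries (CleanTag kit, NextSeq) had been sequenced. The authors trimmed adapters with QuasR, aligned reads to ce10 with Bowtie, kept reads with up to 100 matching positions, and deposited whole-number counts of reads starting within 3 bp of the 5′ end of each strand of miRBase v22. Strands of near-identical sequence can therefore share reads. For QuasR and Bowtie the version is not given in the sources used here. Besides the counts, the authors deposited log2 values, made from the counts by scaling to the mean library total and adding 8, and recomputing them differed by at most 5e-04. No column was left unused.

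Counts were filtered with filterByExpr by window (minimum count 10), scaled with TMM factors (0.953 to 1.085) and tested with edgeR 4.0.16 quasi-likelihood tests in R 4.3.3. The threshold was a Benjamini-Hochberg adjusted p of 0.01 over all tested strands. Of the 249 tested, 12 passed the filter through 1 window only, and 188 were not tested. Strand ratios (pseudocount 8) were tested with limma 3.58.1, and DESeq2 1.42.0 served as an alternative. The code was tested on simulated data. Reads carried no molecular identifiers, so errors cover scatter between libraries. Other library totals were 2832088 to 8060155.

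The windows, the lists and the rule for named strands (10 largest changes per direction, selected hairpins, list members, the strand ratios past the threshold, the smallest p for the strain difference, and the largest later changes) were chosen with earlier results of these data known. The 10 largest changes were taken among called strands whose early and late hours did not overlap. Chromosomes, host genes and neighbours within 10000 bp come from the WBcel235 annotation, whose build is not that of the counts, so no coordinates are given. Mature sequences were not used here.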

Additional observations from a re-analysis of the deposited data

Results flagged for a closer look

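The change of miR-235-3p between 26-28 h and 30-32 h in WT differed from that between 29-31 h and 33-35 h in ebax-1(tm2321) by -2.34 on the log2 scale, by edgeR's test of the difference itself (adjusted p = 1.37e-06). All 3 late WT hours lay below all 3 early ones. In the mutant the deposited log2 value was 17.31, 17.32 and 17.12 at 29, 30 and 31 h, 17.35 at 32 h and 17.06, 16.71 and 17.05 at 33, 34 and 35 h, and from 25 to 42 h it never went below the 16.71 of 34 h, against a WT minimum of 13.68. The window groups hold 3 libraries each, too few to test for single libraries that stand apart. In the mutant, the 34 h library (8060155 counts) differed from 33 h and 35 h in some abundant strands. There let-7-5p was at 30470 CPM against 54040 and 61280, and miR-44-3p at 73120 CPM against 42840 and 41570. miR-72-5p was close, at 109900 CPM against 108400 and 104400. Without the 34 h library, miR-235-3p was still the only strain difference called.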

How the results depend on the processing

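Of the 38 calls, 16 (14 rises and 2 falls) were lost only when the windows were moved, and 22 were lost without at least 1 library, 19 of them without 27 h and 21 without 28 h. No called strand that could be tested changed direction under the 16 alternatives. Rises numbered 14 to 42 and falls 2 to 7 with 1 library left out, passengers that rose 9 to 19 and guides that rose 4 to 21. Strand ratios then numbered 0 to 2 up and 1 to 4 down, strain differences 0 to 1 higher and 1 to 1 lower, and changes after 32 h 0 to 12 higher and 0 to 22 lower.

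In edgeR, windows 1 h earlier gave 0 calls of any kind (83 strands at an unadjusted p under 0.05, and 26 rises and 14 falls in DESeq2), and windows 1 h later gave 15 rises (7 passengers, 7 guides). The cause was not tested. DESeq2's Wald test gave 39 rises and 18 falls, which lowered the share of rises among calls from 78.9% to 68.4%, and a spread shared with the mutant gave 13 falls. A threshold of 0.05 gave 23 falls and 23 rising passengers, by construction, and 4 and 5 strand ratios up and down. The strain difference had 4 higher and 2 lower with DESeq2 size factors, 4 higher with library totals, 1 higher without a filter, 4 higher and 3 lower with DESeq2's test, 5 higher and 3 lower with no shift of the mutant, and 4 higher and 3 lower at 0.05. Changes after 32 h had 15 falls with library totals, 7 without a filter, 20 rises and 19 falls with DESeq2's test, and 30 rises and 26 falls at 0.05.

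No paired analysis was possible because each hour is 1 library with no replicate number that links the windows. Strands with few counts, such as miR-85-5p and miR-235-5p, were limited by depth. Scaling moved the median change of all strands by less than 0.1. Some calls still depended on it. miR-35-3p and miR-62 lost theirs with DESeq2 size factors and with library totals, and miR-2-5p with library totals.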
